A study of Danio rerio with 12 samples.

Results

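The fibroblast growth factor (FGF) genes of the adult zebrafish heart were followed across its dissected parts. The set holds every gene whose symbol is fgf followed by a number and at most 1 letter, or fgfr1a, fgfr1b, fgfr2, fgfr3, fgfr4, fgfrl1a or fgfrl1b, which gave 28 of the 22158 genes counted. By role these are 15 secreted ligands, 6 intracellular FGFs, 5 signalling receptors and 2 receptor-like genes. At least 10 reads in 2 or more libraries were found for 25 of them. The same 25 also passed the filter on low counts that 19145 genes passed, and they are tested here. fgf11a, fgf16 and fgfr1b were not tested.

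Bulk RNA-seq had been made from 6 groups, with 2 libraries each and the tissue of 20 pooled fish per library. Wild-type (WT) fish gave the bulbus arteriosus (BA, the elastic outflow vessel of the ventricle), the sinus venosus (SV, the venous inflow vessel), the atrium and the ventricle. Mutant fish gave the SV and the ventricle, and the study describes its mutant fish as homozygous. They had the nr2f1a aco allele, which deletes part of the 5′ untranslated region of nr2f1a, a transcription factor gene of atrial development. The genotype labels of the libraries give AB/TU as the background, while the study's methods name AB/TL. All fish were adults aged between 6 months and 1.5 years. The mutant SV was the enlarged structure at the venous pole, since the study describes these adults as having in effect no atrium. The mutant libraries carry the mutant genotype in their titles and genotype labels and WT in their source and tissue labels, and were taken as mutant. The labels do not say whether libraries were made from separate groups of fish, so p-values measure the spread between these libraries, which may be technical.

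Secreted FGFs bind receptor tyrosine kinases on the cell surface, with heparan sulphate as a cofactor, and signal through the RAS and ERK kinases. ERK activity induces inhibitors of the same pathway, such as the Sprouty and DUSP proteins. In the zebrafish heart FGF signalling is known for its roles in the formation of cardiomyocytes and of the outflow tract. The intracellular FGFs (FGF11 to FGF14) are not secreted. They bind the voltage-gated sodium channels of excitable cells.

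Libraries held between 28325098 and 60532949 counts, of which 2859 to 12996 fell on the 28 genes. Levels are given as CPM, a gene's reads scaled to a common library total with effective library sizes, and, where genes are compared with each other, as deposited FPKM, which also divides by gene length. nr2f1a, the mutated gene, was at 17.9 and 9.67 CPM in the WT SV and at 13.1 and 24.6 CPM in the mutant SV, and since the mutant allele is still transcribed this level does not check the genotype. Summed CPM of 11 cardiomyocyte markers was 36125 to 144073 in the atrium and ventricle libraries and 549.9 to 3300.4 in those of BA and SV. Summed CPM of 8 smooth muscle markers was 9935 and 12518 in the BA, 1205 to 5636 in the SV libraries of both genotypes and 102 to 555 in the chambers. vmhc, the ventricular myosin, was at 221 and 2099 CPM in the WT ventricle libraries. The libraries of the WT SV held 2419 and 2202 CPM of 16 enterocyte markers, against at most 52.9 elsewhere, and 1 mutant SV library (replicate 1) held 6880 CPM of 15 hepatocyte markers. Where an FGF gene follows such a list, fewer cells of a type and less RNA per cell cannot be told apart in bulk tissue, and the part of the marker levels in each result was not tested.

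**Figure D1:**
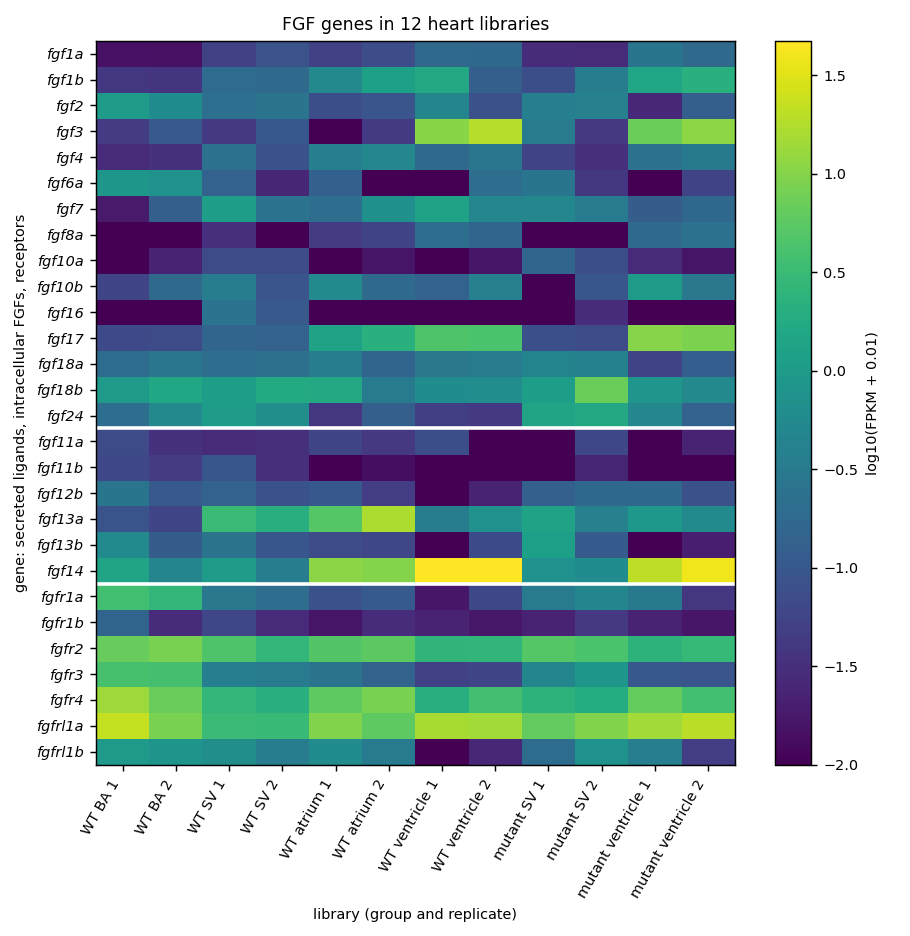
Deposited FPKM of the 28 FGF genes (rows, on a log10(FPKM + 0.01) colour scale) in the 12 libraries (columns), with white lines between secreted ligands, intracellular FGFs and receptors. fgf14 was highest in the ventricle libraries (47.4 and 47.1 FPKM in WT), while fgfr2, fgfr4 and fgfrl1a were at 1.87 FPKM or more in each library.

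Most of the tested FGF genes differed between tissues by more than the spread between replicate libraries. By the quasi-likelihood test of edgeR, with p-values adjusted over all genes by the Benjamini-Hochberg method, 18 of 25 differed somewhere among the 4 WT tissues at an adjusted p below 0.05, where 41.4% of all genes did. The BA and the ventricle differed in most of them: 17 of 25 were called, against 26.7% of all genes, of which 8 were higher in the BA (13.8% of all genes) and 9 lower (12.9%). The SV and the ventricle differed in 11 (35.7% of all genes), with 7 higher in the SV (19.4%) and 4 lower (16.2%). The BA and the atrium differed in 9 (18.6%), with 3 higher in the BA (8.46%) and 6 lower (10.1%). The SV and the BA differed in 7 (18.1%), with 2 higher in the SV (9.37%) and 5 lower (8.69%), and the SV and the atrium in 5 (20.6%), with 1 higher in the SV (9.61%) and 4 lower (10.9%). The atrium and the ventricle differed in 5 (5.11%), with 3 higher in the atrium (3.12%) and 2 lower (1.98%). The mutant SV differed from the mutant ventricle in 12 (21%), with 4 higher in the SV (9.86%) and 8 lower (11.1%), and from the WT BA in 4 (7.32%), with 1 higher in the mutant SV (3.49%) and 3 lower (3.82%). The shares for SV against BA, SV against ventricle and SV against atrium were near those of all genes. Comparisons that share a group of libraries are not independent. Of these 71 calls over the 10 comparisons, including 1 between genotypes, 34 were lost without at least 1 of the 12 libraries. Of the 25 genes, 22 were called in at least 1 comparison. The share of all genes called in at least 1 was not computed, so this count cannot be set against all genes. The libraries of the groups did not overlap for 16 of 25 between SV and BA (60.6% of all genes), 16 between SV and atrium (61.4%), 17 between SV and ventricle (70.7%), 20 between BA and atrium (55.3%), 21 between BA and ventricle (59.4%), 14 between atrium and ventricle (49.1%), 15 between mutant SV and BA (53.9%) and 20 between mutant SV and mutant ventricle (56.6%).

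**Figure D2:**
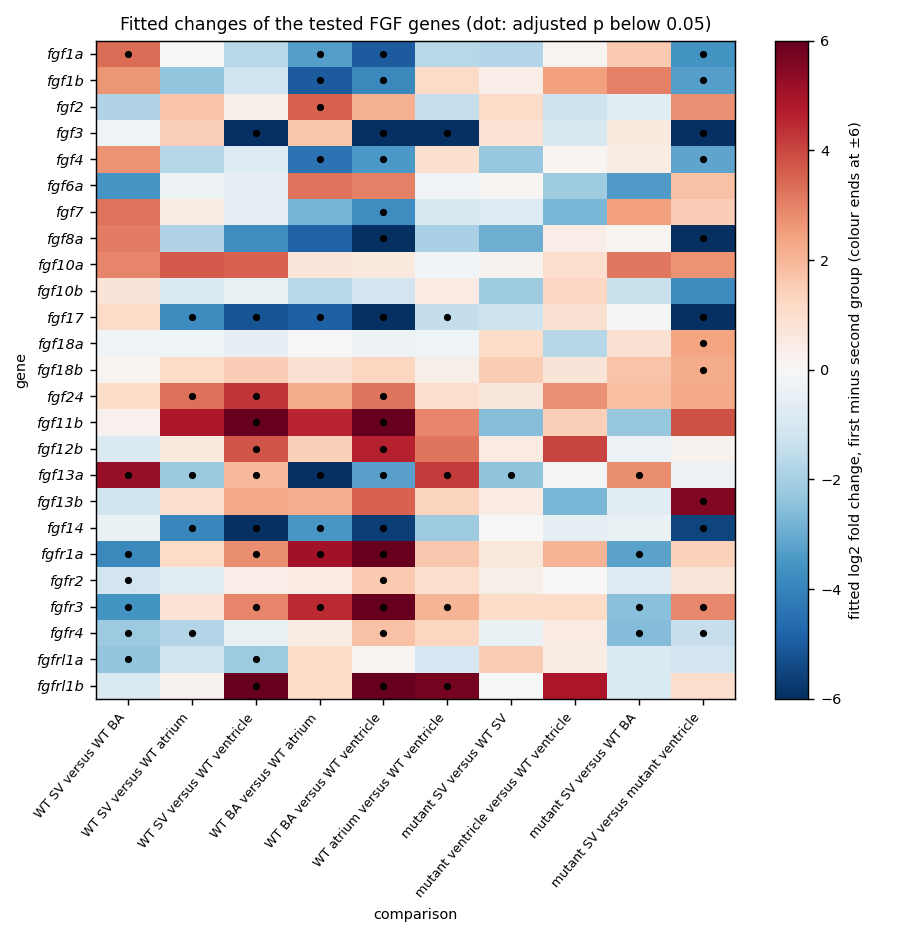
Fitted log2 fold changes (first minus second group, colour scale ending at 6 in each direction) of the 25 tested FGF genes (rows) in the 10 comparisons (columns). Dots mark adjusted p below 0.05 in the quasi-likelihood test of edgeR, 17 of them between the BA and the ventricle and 1 between the mutant and the WT SV.

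Among the secreted ligands, fgf3 was the most abundant per length in the WT ventricle and gave at most 3 reads in any library of another WT tissue. fgf3, a ligand known from ear and pharyngeal development, gave 323 and 512 reads in the WT ventricle libraries (7.93 and 15.03 CPM) and 221 and 343 (5.32 and 9.40 CPM) in those of the mutant ventricle. The atrium libraries held 0 and 1 reads, the WT SV and the BA 1 and 3 each, and the mutant SV 10 and 1. All 4 ventricle libraries thus lay above all 8 others. The ventricle to atrium ratio of CPM was 863, and with 1 read in the atrium its counting interval (95%) ran from 154 to 34127. By the quasi-likelihood test of edgeR the differences were called against the atrium (adjusted p = 0.000828), the SV (8.42e-05) and the BA (0.000102), and none of these calls was lost without any 1 library. Without BA replicate 2 the log2 fold change of the BA against the ventricle moved from -7.88 to -8.69, and without WT SV replicate 2 that of the SV from -8.13 to -8.91. For the atrium it was -8.95 without atrium replicate 1, and each of these values then rested on 1 read in the lower group, while without atrium replicate 2 the atrium held no read. In the mutants the log2 fold change of the SV against the ventricle was -6.33 (SE 0.80, adjusted p = 0.000352), and it was -8.07 without mutant SV replicate 1, -5.02 without mutant SV replicate 2 and -7.27 without mutant ventricle replicate 1.

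fgf4 is the gene next to fgf3 in the GRCz12tu annotation of RefSeq, where both lie within the bounds of ano1a, a gene not analysed here. Its pattern was another one. Reads of fgf4, also a developmental ligand, numbered 48 and 62 in the atrium (1.20 and 1.66 CPM), 22 and 31 in WT ventricle (0.54 and 0.91 CPM), 29 and 10 in WT SV, 2 and 3 in the BA (0.054 and 0.078 CPM), 6 and 3 in the mutant SV and 30 and 37 in the mutant ventricle. The atrium libraries were the highest, and among the WT tissues the BA was the lowest. fgf4 was lower in the BA than in the atrium (log2 fold change of -4.43, SE 0.88, adjusted p = 0.00455 in the quasi-likelihood test of edgeR), a call kept without each library. It was also called lower in the BA than in the ventricle (adjusted p = 0.0123), though not without BA replicate 1 (0.0802) or WT ventricle replicate 2 (0.0569). The mutant SV was called below the mutant ventricle (log2 fold change of -3.15, adjusted p = 0.0197), but not without mutant SV replicate 1 (0.0759), mutant SV replicate 2 (0.134) or mutant ventricle replicate 2 (0.0634). In FPKM the WT ventricle held 14.4 ± 5.40 (SD, n = 2) of fgf3 and 0.224 ± 0.066 of fgf4, and the atrium 0.016 ± 0.023 and 0.435 ± 0.079.

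fgf17, a ligand of the FGF8 subfamily, followed a gradient from ventricle to vessels. It stood at 11.2 and 11.5 CPM in the WT ventricle, 3.23 and 5.60 in the atrium, 0.34 and 0.33 in WT SV and 0.14 and 0.16 in the BA. No library of 1 of these tissues overlapped with one of another. Against the ventricle the log2 fold change was -6.34 for the BA (SE 0.45, adjusted p = 2.54e-05 in the quasi-likelihood test of edgeR) and -5.17 for the SV (SE 0.41, adjusted p = 3.61e-05). Against the atrium it was -3.75 for the SV (adjusted p = 0.000161) and -4.92 for the BA (adjusted p = 4.87e-05). In the mutants the SV stood at 0.16 and 0.14 CPM and the ventricle at 24.5 and 23.3 CPM (-7.32, SE 0.45, adjusted p = 3.98e-05). These 5 calls were kept without each library. The step from atrium to ventricle was smaller (log2 fold change of -1.42, SE 0.33, adjusted p = 0.0355), and leaving out any 1 of 9 libraries took it above the threshold, with an adjusted p between 0.0524 (without WT SV replicate 1) and 0.406 (without WT atrium replicate 1). The other 7 of these 9 were atrium replicate 2 and both libraries of the WT ventricle, the mutant SV and the mutant ventricle. RefSeq also lists fgf17 as an older name of fgf8b, which has no row of its own among the 28 genes, so the row may stand for either. adgrd2, which overlaps fgf17 in that annotation, was at most 1.32 CPM in any library.

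**Figure D3:**
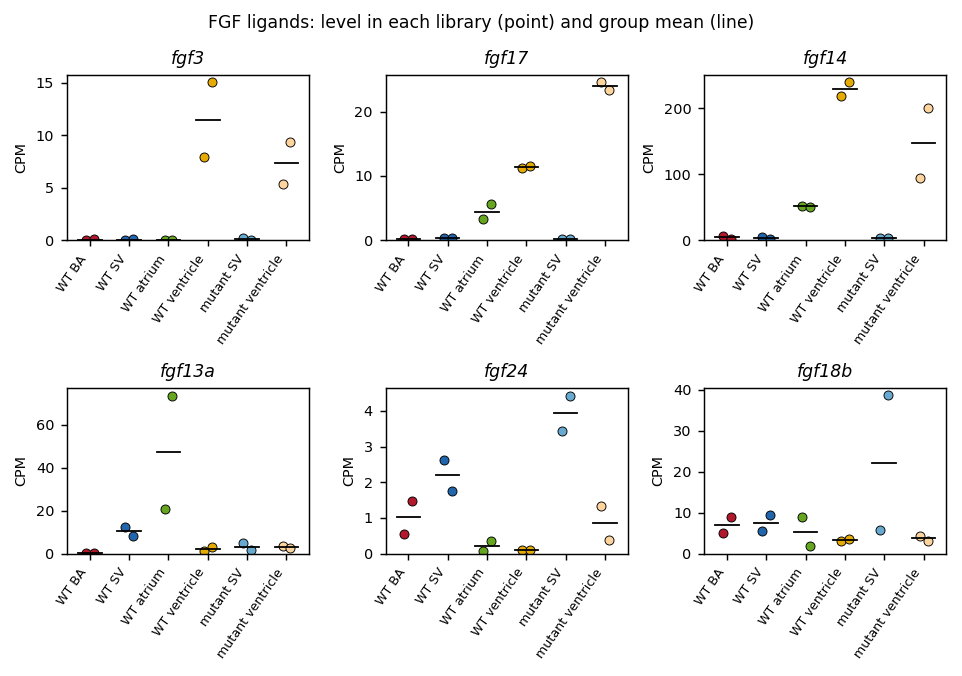
CPM (vertical axes, starting at 0) of 4 secreted ligands and of the intracellular fgf14 and fgf13a in the 2 libraries (points) of each of the 6 groups, with group means (lines). fgf3, fgf17 and fgf14 were highest in the ventricles of both genotypes, fgf13a in the atrium (20.8 and 73.4 CPM) and fgf24 in the SV of both genotypes, while the mutant SV libraries for fgf18b lay at 5.70 and 38.6 CPM.

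fgf8a, a ligand known from early heart field formation, was at most 0.52 CPM in any library. fgf1a and fgf1b, the paralogues of a ligand that binds all signalling receptors, were at most 1.30 and 4.30 CPM. Among the WT tissues fgf8a, fgf1a and fgf1b were lowest in the BA. fgf8a gave 17 and 11 reads in the WT ventricle and 15 and 19 in the mutant ventricle. The atrium held 3 and 4 reads, the WT SV 2 and 0, and the BA and mutant SV none. fgf8a thus reached 10 reads in 4 libraries, all of ventricles. Only the groups called higher therefore brought it into the tested set. A floor of 3 reads over the BA group made the WT ventricle at least 9.39-fold higher (adjusted p = 0.0256 in the quasi-likelihood test of edgeR), and likewise the mutant ventricle was at least 12.4-fold higher than the mutant SV (adjusted p = 0.0215). The first call was lost without BA replicate 1 (adjusted p = 0.101), BA replicate 2 (0.078) or WT ventricle replicate 1 (0.0897), and the second without mutant SV replicate 1 (0.0809), mutant SV replicate 2 (0.079) or mutant ventricle replicate 2 (0.0547).

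fgf1a stood at 0.88 and 0.91 CPM in the WT ventricle, 1.30 and 0.99 in the mutant ventricle, 0.23 and 0.35 in the atrium, 0.21 and 0.40 in WT SV, 0.092 and 0.096 in the mutant SV and 0.027 and 0.026 (1 read each) in the BA. The order ran from the ventricles to the BA, with atrium and WT SV overlapping. The ventricle to BA ratio of CPM was 33.7 (95% counting interval 8.97 to 284, adjusted p = 0.00234 in the quasi-likelihood test of edgeR), a call kept without each library. The SV (adjusted p = 0.031) and the atrium (0.0301) were also called above the BA, but not without either library of the 2 groups compared: the adjusted p was then 0.0599 to 0.157 for the SV and 0.0626 to 0.154 for the atrium. In the mutants the SV was below the ventricle (log2 fold change of -3.60, SE 0.80, adjusted p = 0.00794, and 0.0669 without mutant SV replicate 1).

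fgf1b varied between replicates. It stood at 2.92 and 0.23 CPM in the WT ventricle, 0.98 and 2.44 in the atrium, 2.67 and 4.30 in the mutant ventricle, 0.32 and 0.33 in WT SV, 0.11 and 0.63 in the mutant SV and 0.054 and 0.052 in the BA. The BA libraries were below all others. It was called lower in the BA than in the atrium (log2 fold change of -4.98, SE 1.09, adjusted p = 0.00813 in the quasi-likelihood test of edgeR), with an adjusted p of 0.0569 without BA replicate 1 and a log2 fold change of -3.28 without atrium replicate 2 and -5.74 without atrium replicate 1. It was also called lower than in the ventricle (adjusted p = 0.0279), but not without WT ventricle replicate 1 (0.303), BA replicate 1 (0.116) or BA replicate 2 (0.0785). That log2 fold change was -3.86 with all libraries, -2.23 and -5.61 without WT ventricle replicate 1 or 2, and -3.12 without either atrium replicate. In the mutants the SV was called below the ventricle (log2 fold change of -3.31, adjusted p = 0.0243), but not without mutant SV replicate 1 (0.173), mutant ventricle replicate 1 (0.0623) or mutant ventricle replicate 2 (0.0819), and it was -4.69 without mutant SV replicate 2.

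Some other ligands, such as fgf24 and fgf2, had their highest mean among the WT tissues in a vessel. fgf24, a ligand of the FGF8 subfamily found in fish and known from pectoral fin formation, was at 2.63 and 1.75 CPM in the WT SV, 3.43 and 4.43 in the mutant SV, 0.54 and 1.48 in the BA, 0.075 and 0.35 in the atrium, 0.098 and 0.088 in WT ventricle and 1.32 and 0.38 in the mutant ventricle. The SV libraries of both genotypes were above all others. Summed CPM of 7 thyroid and pharyngeal epithelium markers was likewise highest there (49.6 and 46.2 in WT, 65.6 and 341 in the mutant), against 5.30 and 3.77 in the BA and 6.55 to 16.6 in the chambers. Of the 6 tested markers 4 were called above the BA in WT SV and none below it (9.37% and 8.69% of all genes). Against the atrium 3 were called higher in WT SV and 2 lower (9.61% and 10.9% of all genes). Against the ventricle 4 were called higher and 1 lower (19.4% and 16.2%). No read was found of tpo in the atrium or of epcam in the WT ventricle. Other lists were also called above the BA in WT SV: 14 of 16 enterocyte, 12 of 15 hepatocyte and 9 of 11 neuron and glia markers. In each of these lists 0 were called lower. The part of any of these lists in the fgf24 result was not tested. The WT SV exceeded the ventricle by 4.31 on the log2 scale (SE 0.93, adjusted p = 0.00455 in the quasi-likelihood test of edgeR), a call kept without each library, and the atrium by 3.32 (SE 0.83, adjusted p = 0.0157), which was lost without WT SV replicate 1 (0.0725) or atrium replicate 1 (0.137) and was 4.78 without atrium replicate 2. The BA was also called above the ventricle (log2 fold change of 3.20, adjusted p = 0.0246), a call lost without BA replicate 2 (0.105), WT ventricle replicate 1 (0.0876) or 2 (0.0879), or mutant SV replicate 1 (0.0676) or 2 (0.0713), and it was 3.80 without BA replicate 1. The SV against the BA gave 1.11 (SE 0.73, adjusted p = 0.329), which was not called.

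fgf2, a ligand of broad receptor range, was at 1.55 and 0.96 CPM in the BA, 0.10 and 0.13 in the atrium, 0.30 and 0.37 in WT SV, 0.69 and 0.12 in WT ventricle, 0.53 and 0.60 in the mutant SV and 0.024 and 0.19 in the mutant ventricle. Its BA libraries were the highest. The call against the atrium (log2 fold change of 3.52, SE 0.99, adjusted p = 0.0286 in the quasi-likelihood test of edgeR) was lost without BA replicate 1 (0.121), atrium replicate 1 (0.195) or atrium replicate 2 (0.0898). fgf6a, a ligand known from skeletal muscle, gave 52 and 50 reads in the BA and 0 to 17 in every other library, but it was not called in any comparison. fgf7, a ligand for epithelial receptors, gave 152 and 33 reads in the WT SV, 27 and 90 in the atrium, 65 and 44 in the mutant SV and 15 and 20 in the mutant ventricle. It was lower in the BA (1 and 16 reads) than in the WT ventricle (167 and 59 reads, log2 fold change of -3.74, SE 1.15, adjusted p = 0.0326), and the call was lost without BA replicate 1 (0.137), atrium replicate 2 (0.0522), WT ventricle replicate 1 (0.166) or mutant SV replicate 1 (0.0631) or 2 (0.0647). That log2 fold change was -6.60 without BA replicate 2 and -4.40 without WT ventricle replicate 2. fgf10a and fgf10b, which act on the same epithelial receptors as fgf7, and fgf16, an FGF9 subfamily ligand, did not exceed 24 reads in any library. fgf10a had its highest values in the SV (10 and 10 reads in WT, 24 and 11 in the mutant, and 0 to 3 elsewhere), and fgf16 was found in the WT SV (12 and 5 reads), with 1 read in mutant SV replicate 2 and none in the other 9 libraries.

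fgf18a and fgf18b, both FGF8 subfamily ligands, were found in each library. fgf18b was at 5.11 and 8.87 CPM in the BA, 5.51 and 9.43 in WT SV, 8.81 and 1.79 in the atrium, 3.12 and 3.55 in WT ventricle, 5.70 and 38.6 in the mutant SV and 4.36 and 3.04 in the mutant ventricle. One mutant SV library, replicate 2, stood above all others. The thyroid and pharyngeal marker sums of these mutant SV libraries, given above, came in the second mostly from tg (1.31 and 280 CPM), and the smooth muscle marker sums were 1205 and 5636. The mutant SV was called above the mutant ventricle (log2 fold change of 2.25, SE 0.72, adjusted p = 0.0471 in the quasi-likelihood test of edgeR), but without mutant SV replicate 2 the value was 0.62 (adjusted p = 0.662), and the call was also lost without mutant ventricle replicate 2 (0.142) or WT SV replicate 2 (0.0506). It was 3.36 without mutant SV replicate 1 and 2.88 without mutant ventricle replicate 1. fgf18a ranged from 0.51 to 1.28 CPM in 10 of the 12 libraries and was lower in the mutant ventricle (0.14 and 0.38 CPM), which the mutant SV exceeded by 2.35 on the log2 scale (adjusted p = 0.0397). Of the 12 fits with 1 library left out, those without BA replicate 1, BA replicate 2 or WT ventricle replicate 1 kept that call, and the others gave adjusted p-values of 0.0507 to 0.249.

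fgf14, which tunes the sodium channels of excitable cells, reached the highest FPKM of the intracellular FGFs and secreted ligands (47.3 ± 0.27 in WT ventricle, SD, n = 2). It stood at 219 and 239 CPM in the WT ventricle, 95.02 and 201 in the mutant ventricle, 52.6 and 50.3 in the atrium, 6.53 and 2.34 in the BA, 4.87 and 1.68 in WT SV and 3.16 and 2.89 in the mutant SV. The chambers were above the vessels in each library. Against the ventricle the log2 fold change was -6.06 for the SV (SE 0.67, adjusted p = 9.75e-05 in the quasi-likelihood test of edgeR) and -5.64 for the BA (SE 0.66, adjusted p = 0.000137). Against the atrium it was -3.92 for the SV (SE 0.61, adjusted p = 0.00118) and -3.50 for the BA (SE 0.60, adjusted p = 0.00186), and in the mutants the SV against the ventricle gave -5.51 (SE 0.67, adjusted p = 0.000283). These 5 calls were kept without each library. Without WT SV replicate 1 the SV values were -7.04 against the ventricle and -4.88 against the atrium, the latter being -3.33 without WT SV replicate 2. Without BA replicate 1 the BA values were -6.55 and -4.40. The atrium against the ventricle gave -2.14 (SE 0.56, adjusted p = 0.0507), which was not called. The sum of the cardiomyocyte markers given above was likewise higher in the chambers than in the vessels, and its part in the fgf14 result was not tested.

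fgf13a, another sodium channel partner, was highest in the atrium and, among the vessels, in the SV. It stood at 20.8 and 73.4 CPM in the atrium, 12.5 and 8.36 in WT SV, 1.35 and 3.08 in WT ventricle, 3.61 and 2.49 in the mutant ventricle, 4.92 and 1.59 in the mutant SV and 0.33 and 0.21 in the BA. Atrium and WT SV lay above all other libraries. The log2 fold change of the BA against the atrium was -7.46 (SE 0.54, adjusted p = 2.39e-05 in the quasi-likelihood test of edgeR) and that of the atrium against the ventricle 4.19 (SE 0.45, adjusted p = 0.00103). The SV exceeded the BA by 5.21 (SE 0.51, adjusted p = 0.000145) and the ventricle by 1.94 (SE 0.43, adjusted p = 0.00487), and the BA against the ventricle gave -3.27 (SE 0.50, adjusted p = 0.000617). These calls were kept without each library. Without atrium replicate 2 the BA against the atrium was -6.63 and the atrium against the ventricle 3.32. Without WT ventricle replicate 2 the atrium, SV and BA against the ventricle were 4.81, 2.65 and -2.55. The SV was also called below the atrium (-2.25, SE 0.41, adjusted p = 0.00277), but not without atrium replicate 2 (-1.42, adjusted p = 0.0954). The mutant SV was above the BA (2.79, SE 0.50, adjusted p = 0.00928), with an adjusted p of 0.0503 without mutant SV replicate 1 and a value of 3.79 without mutant SV replicate 2. Summed CPM of 12 neuron and glia markers was likewise higher in the WT SV (85.2 and 33.8) and the atrium (29.1 and 15.3) than in the BA (5.52 and 2.58) and the WT ventricle (4.72 and 4.58), and it was 15.7 and 42.8 in the mutant SV and 4.16 and 3.40 in the mutant ventricle. Of the 11 tested markers, 9 were called above the BA in WT SV and none below it (9.37% and 8.69% of all genes). Against the atrium, where fgf13a was called lower in WT SV, 3 were called higher and 0 lower (9.61% and 10.9%). Against the ventricle 10 were called higher and 0 lower (19.4% and 16.2%). No read of th was found in the BA, the atrium or either ventricle, nor of elavl3 in the BA and WT ventricle, gfap in the WT ventricle or phox2bb in the mutant ventricle. The part of these markers in the fgf13a result was not tested.

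The other intracellular FGFs were low. fgf12b was at 1.55 and 0.62 CPM in the BA, 0.75 and 0.44 in WT SV, 0.58 and 0.24 in the atrium, 0 and 0.088 in WT ventricle (0 and 3 reads), 0.69 and 0.96 in the mutant SV and 0.96 and 0.47 in the mutant ventricle. The WT ventricle libraries were the lowest. The BA to ventricle ratio of CPM was 26.8 (95% counting interval 8.86 to 133, adjusted p = 0.0125 in the quasi-likelihood test of edgeR) and the SV to ventricle ratio 14.95 (4.84 to 74.9, adjusted p = 0.0265). The first call was lost without BA replicate 1 (0.0618) or WT ventricle replicate 1 (0.1), and the second without WT SV replicate 1 (0.104) or WT ventricle replicate 1 (0.158). Without WT ventricle replicate 2 the WT ventricle held no read of fgf12b. fgf13b gave 49 and 11 reads in the BA, 25 and 9 in WT SV, 6 and 5 in the atrium, 0 and 5 in WT ventricle, 117 and 11 in the mutant SV and 0 and 1 in the mutant ventricle. The mutant SV to mutant ventricle comparison gave a CPM ratio of 117 (95% counting interval 20.7 to 4665, adjusted p = 0.0392), which was lost without mutant SV replicate 1 (0.2), mutant ventricle replicate 1 (0.215) or 2 (0.0717), or atrium replicate 1 (0.059) or 2 (0.0587). fgf11b was found in the BA (13 and 9 reads) and WT SV (24 and 6), with 0 and 1 in the atrium, 0 and 4 in the mutant SV and none in either ventricle, so that, with a floor of 3 reads over the WT ventricle, the SV was at least 8.63-fold higher (adjusted p = 0.024) and the BA at least 7.29-fold higher (adjusted p = 0.035). Of the 12 fits with 1 library left out, 7 kept the SV call and 4 the BA call. fgf11b reached 10 reads in 2 libraries, 1 of the BA and 1 of the WT SV. It too was brought into the tested set only through the groups called higher. Its paralogue fgf11a gave 0 to 11 reads in every library.

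Each tested signalling receptor had its highest mean CPM in the BA, and the receptors differed in their levels elsewhere. fgfr2 and fgfr4, signalling receptors, made up most of the receptor FPKM in each group: fgfr2 was 31.1% to 59.6% and fgfr4 26.5% to 62.1% of the group means. fgfr3 and fgfr1a held smaller shares outside the BA than in it. In the BA fgfr3 was 16.0% ± 2.46 (SD, n = 2) and fgfr1a 12.6% ± 0.52 of the receptor FPKM. In the WT SV these shares were 5.23% and 3.56%, in the mutant SV 8.52% and 5.12%, in the atrium 1.62% and 0.69% and in the WT ventricle 0.85% and 0.48%. Summed receptor FPKM was 28.2 and 22.1 in the BA, and 4.72 to 14.4 in the other libraries. These shares depend on gene length, which was 14985 bases for fgfr3 and 3699 to 5482 for the other signalling receptors. By reads, fgfr3 had the highest mean of these receptors in the BA (60.8 CPM, against 48.9 for fgfr4 and 42.7 for fgfr2). In BA replicate 1 fgfr4 was above it (64.0 against 59.7 CPM).

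**Figure D4:**
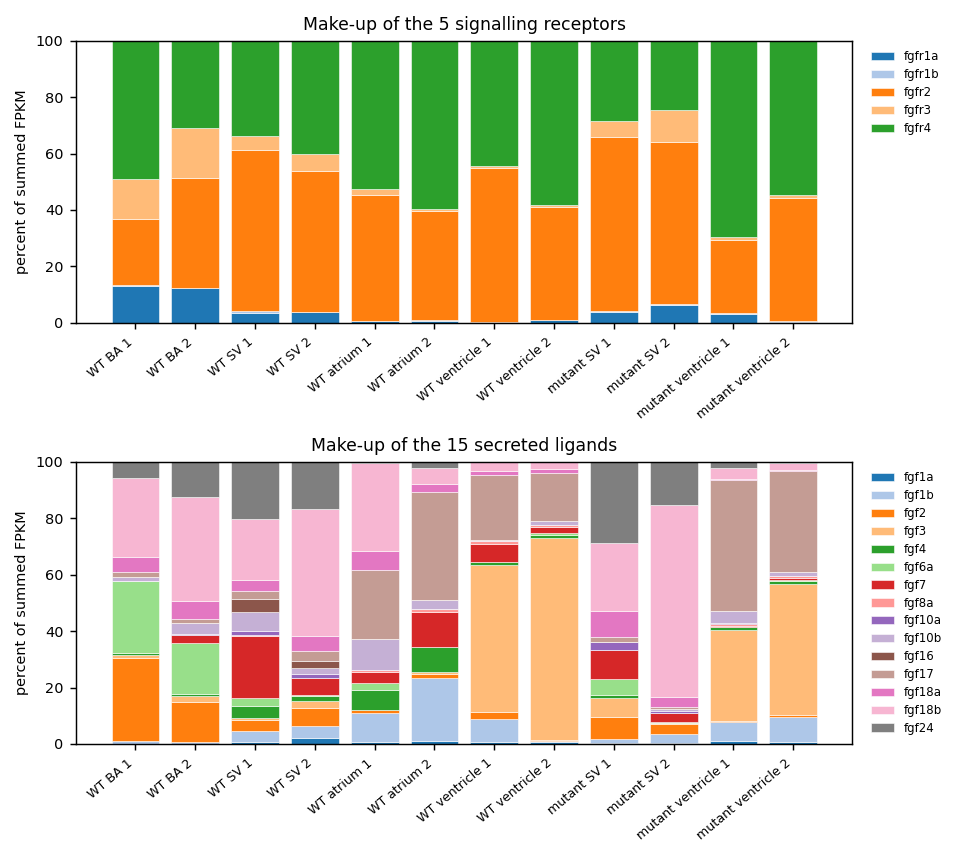
Share of each gene in the summed FPKM of the 5 signalling receptors (upper panel) and of the 15 secreted ligands (lower panel), in percent of the library's sum, in the 12 libraries (bars). In the ligand panel fgf3 holds 52.3% and 71.7% of the WT ventricle sum, and in the receptor panel fgfr1a and fgfr3 are widest in the BA.

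fgfr3, a receptor known from cartilage and bone growth, was at 59.7 and 61.9 CPM in the BA, 5.24 and 4.63 in WT SV, 3.78 and 2.25 in the atrium, 0.64 and 0.79 in WT ventricle, 6.59 and 13.0 in the mutant SV and 1.35 and 1.32 in the mutant ventricle. The BA libraries were far above all others. The BA exceeded the ventricle by 6.52 (SE 0.43, adjusted p = 2.17e-05 in the quasi-likelihood test of edgeR) and the atrium by 4.45 (SE 0.38, adjusted p = 4.44e-05) on the log2 scale. Against the BA the WT SV gave -3.60 (SE 0.36, adjusted p = 0.000172) and the mutant SV -2.50 (SE 0.36, adjusted p = 0.00353). The SV exceeded the ventricle in WT (2.92, SE 0.38, adjusted p = 0.000219) and in mutants (2.88, SE 0.36, adjusted p = 0.000349). These 6 calls were kept without each library, with -3.17 for the mutant SV against the BA without mutant SV replicate 2. The atrium was also called above the ventricle (2.06, SE 0.37, adjusted p = 0.0127), but not without atrium replicate 1 (0.163) or WT ventricle replicate 1 (0.168). The smooth muscle marker sum given above was likewise highest in the BA and higher in the SV than in the chambers. Most of the BA sum came from acta2 (mean of 7021 CPM). Of the 8 markers, all tested, 6 were called higher and 1 lower for BA against atrium (8.46% and 10.1% of all genes). The counts for BA against ventricle were also 6 and 1 (13.8% and 12.9%). WT SV against BA gave 1 higher and 5 lower (9.37% and 8.69%). WT SV against atrium gave 5 and 0 (9.61% and 10.9%), and against ventricle 5 and 1 (19.4% and 16.2%). The sum of 8 epicardial markers was also highest in the BA (1574 and 1670 CPM, against 172 to 838 elsewhere). It came there mostly from krt4 (mean of 1452 CPM), and 1 marker was at 0. Of the 7 tested, only krt4 was called between BA and atrium, higher in the BA (8.46% of all genes). The list's median log2 fold change there was -0.12. Against the ventricle 3 were called, all higher in the BA (13.8% of all genes), with a median of 1.62. The part of both lists in the fgfr3 and fgfr1a results was not tested.

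fgfr1a, a receptor known from mesoderm formation, stood at 13.4 and 10.5 CPM in the BA, 0.96 and 0.72 in WT SV, 1.12 and 1.78 in the mutant SV, 0.28 and 0.40 in the atrium, 0.025 and 0.21 in WT ventricle (1 and 7 reads) and 1.08 and 0.11 in the mutant ventricle. The BA was again apart. It exceeded the ventricle by 6.65 (SE 1.014, adjusted p = 0.000641 in the quasi-likelihood test of edgeR) and the atrium by 5.04 (SE 0.91, adjusted p = 0.0026), calls kept without each library. The value against the ventricle was 5.85 and 8.75 without WT ventricle replicate 1 or 2 and 6.04 and 6.06 without mutant SV replicate 1 or 2. Against the BA the WT SV gave -3.86 (SE 0.83, adjusted p = 0.00927), a call lost without WT SV replicate 2 (0.0972). The mutant SV against the BA gave -3.21 (SE 0.82, adjusted p = 0.0375), a call lost without BA replicate 1 (0.118), mutant SV replicate 1 (0.089), WT SV replicate 2 (0.0578) or atrium replicate 1 (0.0706) or 2 (0.0711), and -4.27 without mutant SV replicate 2. The WT SV was called above the ventricle (2.79, SE 0.96, adjusted p = 0.0426), but not without WT SV replicate 1 (0.127) or 2 (0.0712), atrium replicate 1 (0.0703) or 2 (0.0708) or WT ventricle replicate 1 (0.235), and that value was 4.91 without WT ventricle replicate 2. fgfr1b, its paralogue, gave 20 and 3 reads in the BA and 1 to 8 in the other libraries.

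fgfr4 was at 64.0 and 33.9 CPM in the BA, 27.4 and 43.0 in the atrium, 11.9 and 10.1 in WT SV, 9.48 and 18.6 in WT ventricle, 10.2 and 8.79 in the mutant SV and 29.4 and 18.3 in the mutant ventricle. Group means were highest in the BA and the atrium and lowest in the SV of both genotypes. Single libraries overlapped: mutant ventricle replicate 1 lay above atrium replicate 1, and WT ventricle replicate 1 below both WT SV libraries. Against the BA the log2 fold change was -2.20 for the WT SV (SE 0.39, adjusted p = 0.00343 in the quasi-likelihood test of edgeR) and -2.60 for the mutant SV (SE 0.41, adjusted p = 0.00547), both kept without each library and the first at -1.61 without BA replicate 1. The SV against the atrium gave -1.78 (SE 0.39, adjusted p = 0.0081), a call lost without WT SV replicate 2 (0.0763) or atrium replicate 2 (0.0765). The BA exceeded the ventricle by 1.74 (SE 0.39, adjusted p = 0.00654), a call lost without BA replicate 1 (0.0617) or WT ventricle replicate 1 (0.0852), and the value was 2.33 without WT ventricle replicate 2. The mutant SV was below the mutant ventricle (-1.38, adjusted p = 0.0247), a call lost without mutant SV replicate 1 (0.141) or 2 (0.106) or mutant ventricle replicate 1 (0.17).

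fgfr2 varied least among the signalling receptors, between 13.0 and 49.6 CPM. It was at 35.8 and 49.6 CPM in the BA, 23.5 and 14.6 in WT SV, 27.3 and 32.7 in the atrium, 13.6 and 15.1 in WT ventricle, 26.2 and 24.0 in the mutant SV and 13.0 and 17.1 in the mutant ventricle. The BA libraries were the highest. The BA exceeded the ventricle by 1.56 (SE 0.34, adjusted p = 0.00578 in the quasi-likelihood test of edgeR), a call kept without each library. The SV against the BA gave -1.16 (SE 0.33, adjusted p = 0.0323), a call lost without BA replicate 2 (0.131), WT SV replicate 2 (0.268) or atrium replicate 1 (0.0519) or 2 (0.0522).

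**Figure D5:**
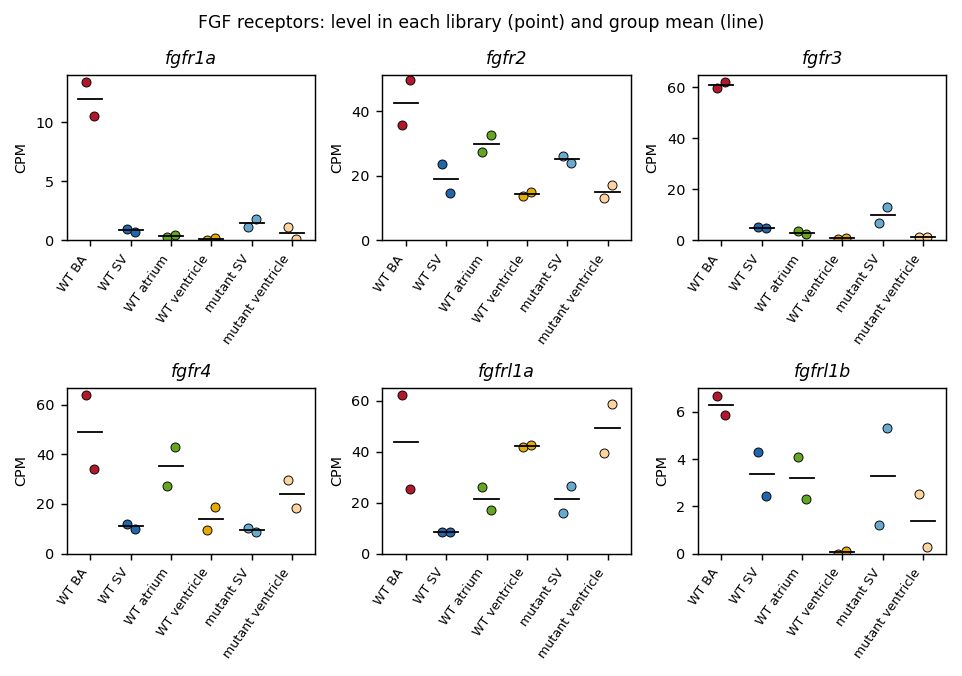
CPM (vertical axes, starting at 0) of 4 signalling receptors and 2 receptor-like genes in the 2 libraries (points) of each of the 6 groups, with group means (lines). fgfr1a and fgfr3 are high in the BA alone among these groups (13.4 and 10.5 CPM, and 59.7 and 61.9 CPM), and fgfrl1a is high in the BA and in the ventricles.

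The receptor-like genes encode receptors without a kinase domain, which bind FGFs. fgfrl1a was at 62.4 and 25.3 CPM in the BA, 8.42 and 8.34 in WT SV, 26.0 and 17.0 in the atrium, 41.9 and 42.6 in WT ventricle, 16.0 and 26.6 in the mutant SV and 39.5 and 58.7 in the mutant ventricle. The WT SV had the lowest values. Its log2 fold change was -2.33 against the BA (SE 0.40, adjusted p = 0.00289 in the quasi-likelihood test of edgeR) and -2.18 against the ventricle (SE 0.40, adjusted p = 0.00179), and both calls were kept without each library. Without BA replicate 1 the first was -1.62. fgfrl1b had the opposite low point: 0 and 4 reads in the WT ventricle (0 and 0.12 CPM), against 6.69 and 5.88 CPM in the BA, 4.32 and 2.42 in WT SV, 4.08 and 2.30 in the atrium, 1.21 and 5.32 in the mutant SV and 2.50 and 0.27 in the mutant ventricle. The WT ventricle was lower than the BA (log2 fold change of 6.85 for BA against ventricle, SE 1.34, adjusted p = 0.003), than the SV (5.97 for the SV, adjusted p = 0.00531) and than the atrium (5.75 for the atrium, adjusted p = 0.0333). The calls of BA and SV were kept without each library. Their values were 5.39 and 4.53 without WT ventricle replicate 1, and the BA value was 6.20 and 6.21 without mutant SV replicate 1 or 2. Without WT ventricle replicate 2 the WT ventricle held no read of fgfrl1b, so that the fold could not be measured. The atrium call was lost without atrium replicate 1 (0.211), atrium replicate 2 (0.0654) or WT ventricle replicate 1 (0.269).

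Between the genotypes few FGF genes were called. In the SV, 1 of 25 was called, fgf13a, where 1.54% of all genes were (1.25% lower in the mutant and 0.293% higher), and the libraries did not overlap for 13 of 25 (47.6% of all genes). It was lower in the mutant SV (215 and 66 reads, 4.92 and 1.59 CPM) than in the WT SV (545 and 359 reads, 12.5 and 8.36 CPM), with a log2 fold change of -2.42 (SE 0.44, adjusted p = 0.0202 in the quasi-likelihood test of edgeR). The call was lost without WT SV replicate 1 (-1.99, adjusted p = 0.0792), mutant SV replicate 1 (-2.68, adjusted p = 0.136) or mutant SV replicate 2 (-1.53, adjusted p = 0.311). It was also lost without the RUVs factor, the estimate of unwanted variation among replicates that the fit includes (-1.68, adjusted p = 0.306), and with only the groups compared in the fit (adjusted p = 0.318). The RUVs factor stood at -0.21 and 0.26 in the WT SV libraries and at 2.07 and -0.48 in those of the mutant SV. It was thus not balanced between the genotypes. myh6, the atrial myosin, was at 304 and 202 CPM in the WT SV and at 39.7 and 5.51 in the mutant SV. It was the only 1 of 11 cardiomyocyte markers called here, lower in the mutant (1.25% of all genes). The sum of all 11, of which none was at 0, was at 3300.4 and 2154 against 2244 and 549.9 CPM, so the sums overlapped. The neuron and glia sums given above overlapped between the SV of the genotypes. Of 16 tested enterocyte markers, 11 were called lower in the mutant SV and 0 higher (1.25% and 0.293% of all genes). Their sum was 2419 and 2202 CPM in the WT SV and 52.9 and 9.34 CPM in the mutant SV. The part of any of these marker lists in the fgf13a difference was not tested. The test of a different genotype effect in SV and ventricle gave -2.28 for fgf13a (SE 0.58, adjusted p = 0.157).

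In the SV, 6 of the 25 had an unadjusted p below 0.05 (14% of all genes), and DESeq2 with the same factor called 3 (5.49% of all genes). These were fgf13a, fgfrl1a and fgfr3. fgfrl1a was at 16.0 and 26.6 CPM in the mutant SV against 8.42 and 8.34 in WT (log2 fold change of 1.501, SE 0.40, adjusted p = 0.104 in the quasi-likelihood test of edgeR and 0.0207 in DESeq2). fgfr3 gave 6.59 and 13.0 against 5.24 and 4.63 CPM (1.09, adjusted p = 0.159 in edgeR and 0.0488 in DESeq2). Leaving out BA replicate 1 or 2 made the edgeR call for fgfrl1a (0.0362 and 0.0366). In the ventricle none of the 25 was called, with 0.272% of all genes called (0.167% higher in the mutant and 0.104% lower), 9 whose libraries did not overlap (47.2% of all genes), 8 at an unadjusted p below 0.05 (14.3%) and 2 called by DESeq2 (4.17%). These 2 were fgfrl1b (0 and 4 reads in WT, 104 and 10 in the mutant, log2 fold change of 4.90, SE 1.43, adjusted p = 0.17 in edgeR and 0.0116 in DESeq2, and 0.0417 in edgeR without mutant ventricle replicate 2) and fgf12b (0 and 3 reads in WT, 40 and 17 in the mutant, CPM ratio of 18.2, adjusted p = 0.178 in edgeR and 0.0414 in DESeq2). fgf17 was higher in both mutant ventricle libraries (24.5 and 23.3 CPM) than in the WT ones (log2 fold change of 0.91, adjusted p = 0.289) and lower in both mutant SV libraries (0.16 and 0.14 CPM) than in the WT SV (-1.23, adjusted p = 0.243). The genotype effect of fgf17 in the SV against the ventricle was -2.15 (SE 0.55, adjusted p = 0.158) and was not called. For that test of a differing genotype effect no FGF gene was called in edgeR, with 6 at an unadjusted p below 0.05 (12.2% of all genes), where 0.198% of all genes were called (0.0209% higher and 0.178% lower), and DESeq2 called 1 (fgf13a, adjusted p = 0.0223, 3.39% of all genes).

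Paralogue pairs of named genes were set side by side in mean FPKM. fgf1a and fgf1b were at 0.171 and 0.877 in WT ventricle, and 0.0533 and 0.879 in the atrium. In the WT ventricle libraries fgf1b was at 1.63 and 0.119 and fgf1a at 0.177 and 0.166, so replicate 2 had the reverse order. fgf10b exceeded fgf10a in 5 of 6 groups, and the mutant SV was the exception (0.107 for fgf10a and 0.043 for fgf10b), although neither gene was called. This order depends on gene length, 564 bases for fgf10b and 3992 for fgf10a, and on few reads. In the WT SV fgf10a gave more reads (10 and 10) than fgf10b (8 and 2), and in the BA they gave 0 and 2 and 1 and 4. fgf13a exceeded fgf13b in the WT SV (2.65 against 0.167) and in the atrium (10.9 against 0.056), while in the BA the order was the reverse (0.0644 against 0.330). fgf18b was above fgf18a in each group (1.43 against 0.208 in WT SV). fgfrl1a was above fgfrl1b in each group (15.1 against 0.0078 in WT ventricle, 15.8 against 0.877 in the BA).

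Genes that pass FGF signals on, or that answer it, were taken from 4 lists. Co-receptors and binding proteins (7 tested of 13) held 3 calls between SV and BA, 2 higher (klb and anos1b) and 1 lower (flrt3, named after its values were seen) in the SV, where 9.37% and 8.69% of all genes were, with a median log2 fold change of 2.88 against 0.06 over all genes tested. klb, the co-receptor of the endocrine FGF19 subfamily, gave 65 and 73 reads in the WT SV, 0 and 1 in each of BA, atrium and WT ventricle and 56 and 5 in the mutant SV. Its WT SV level was called above that of the BA (adjusted p = 0.0119 in the quasi-likelihood test of edgeR), atrium (0.0127) and ventricle (0.00972). The first of these calls was lost without BA replicate 1 (0.0687) and that for the atrium without atrium replicate 1 (0.0771) or 2 (0.0756). The enterocyte marker sum was high in the same WT SV libraries, and the hepatocyte sum was at 384 and 700.4 CPM there and at 6880 and 459 CPM in the mutant SV. Their part in the klb result was not tested. anos1a and anos1b, extracellular matrix proteins that bind FGF receptors, were at 1.39 and 0.54 CPM and at 2.31 and 2.03 CPM in the WT SV, and at 0.11 and 0.026 and at 0 and 0.078 in the BA. anos1a was not called between these tissues (adjusted p = 0.0757). In the other WT comparisons this list held 0 to 2 calls, where 5.11% to 35.7% of all genes were called.

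Receptor adaptors and relays (12 tested of 13) held 3 calls between BA and ventricle, near the share of all genes (26.7%). The 3 were higher in the BA (13.8% of all genes were), and the median was 0.48 against 0.16 over all genes. The other WT comparisons held 0 to 2 calls, where 5.11% to 35.7% of all genes were called. shc1, an adaptor of receptor tyrosine kinases, was at 143 and 159 CPM in the BA and 27.7 to 36.2 in the other WT libraries. The WT SV against the BA gave a log2 fold change of -2.22 (SE 0.28, adjusted p = 0.000529 in the quasi-likelihood test of edgeR), and the BA exceeded the atrium by 2.102 and the ventricle by 2.49, each kept without each library. shc2 was at 7.23 and 3.04 CPM in the BA and 0.37 and 0.50 in WT ventricle, and gab1, which docks PI3K and SHP2, was low in the WT SV (10.8 and 15.2 CPM against 41.6 and 46.0 in the ventricle).

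Of the feedback inhibitors and ERK targets (12 tested of 16), 4 were called between BA and atrium (18.6% of all genes), 1 higher (8.46%) and 3 lower (10.1%) in the BA, with a median of -0.55 against -0.01 over all genes. Between SV and ventricle 4 were also called (35.7% of all genes). The other WT comparisons held 1 or 2 calls, where 5.11% to 26.7% of all genes were called. Neither comparison of the mutant SV with BA (7.32% of all genes) or mutant ventricle (21%) held any. etv4, an ETS factor induced by ERK, was highest in the BA (31.6 and 45.9 CPM) and lowest in the WT SV (8.004 and 5.29 CPM), with a log2 fold change of -2.54 (SE 0.38, adjusted p = 0.00126 in the quasi-likelihood test of edgeR, kept without each library). etv5a, its relative, was highest in the atrium (96.9 and 51.0 CPM) and at 15.9 to 25.2 CPM in the libraries of the WT SV and ventricle and 23.5 and 9.44 CPM in the BA. The BA against the atrium gave -2.03 (SE 0.43, adjusted p = 0.00677), -2.78 without BA replicate 1 and an adjusted p of 0.0737 without atrium replicate 1. spry4, a Sprouty inhibitor that adjoins fgf1b in the RefSeq annotation, was at 435 and 253 CPM in the atrium and 44.2 to 267 in the other WT libraries. The BA was called below the atrium (-1.86, SE 0.42, adjusted p = 0.00905), but not without BA replicate 2 (0.0721) or atrium replicate 2 (0.0558).

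Heparan sulphate genes (32 tested of 36) held 13 calls between BA and ventricle (26.7% of all genes), 10 higher (13.8%) and 3 lower (12.9%) in the BA, with a median of 1.03 against 0.16 over all genes. This was the list's highest count. SV against BA held 9 (18.1% of all genes), SV against atrium 10 (20.6%), SV against ventricle 11 (35.7%) and BA against atrium 9 (18.6%). Atrium against ventricle held 1 (5.11%). sulf1 and sulf2a, which remove sulphate groups from heparan sulphate outside the cell, were at 39.5 and 49.6 CPM and at 29.0 and 20.7 CPM in the BA, against 0.88 and 0.43 and 0.55 and 0.27 in the atrium. The BA exceeded the atrium by 5.70 (SE 0.78, adjusted p = 0.000534 in the quasi-likelihood test of edgeR) and 6.20 (SE 0.42, adjusted p = 1.74e-05), both kept without each library, the first at 6.88 and 5.07 without atrium replicate 1 or 2. gpc1b, a cell surface proteoglycan, was at 21.8 and 25.1 CPM in the BA and at most 5.72 CPM in the other WT libraries. In the mutant SV gpc1b was at 19.5 and 10.1 CPM and sulf1 at 50.1 and 20.1 CPM. Neither was called between mutant SV and BA (adjusted p = 0.131 and 0.376 in the quasi-likelihood test of edgeR). These lists were compiled with earlier results of the same libraries known. Between the genotypes edgeR called none of the 63 tested genes of the 4 lists. An unadjusted p below 0.05 was found for 8 in the SV (14% of all genes) and 5 in the ventricle (14.3%). DESeq2 called 2 in the SV (ext1a, named after its values were seen, and gpc1b, 5.49% of all genes) and 1 in the ventricle (sulf2a, 4.17%). Mean CPM in the mutant and WT SV was 3.90 and 1.54 for ext1a and 14.8 and 3.75 for gpc1b. For sulf2a it was 2.28 and 9.09 in the mutant and WT ventricle.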

How the data were processed

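Bulk RNA-seq of dissected zebrafish heart tissue was available as a table of read counts per gene and FPKM for 12 libraries, 2 in each of 6 groups. The count values were made by the authors from uniquely mapped reads trimmed with cutadapt, aligned with STAR to danRer11 and counted with featureCounts of Subread, with reads shared among overlapping features. The submitters' notes also list GRCz10 and danRer10. The deposited FPKM values were computed by the authors from the same counts, and a whole-base gene length was recovered from their ratio for each of the 22158 genes. Per the study's methods, sequencing batches and library types were mixed and treated as single-end. The libraries of each batch are not labelled, so batches were not compared. Library types also differed in strand, so reads of a gene and an antisense or overlapping partner may not be told apart. The table also holds 30 columns of group means and of the authors' own log2 fold changes, p-values and false discovery rates, which were not used.

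Counts were tested in R 4.3.3 with edgeR 4.0.16 (limma 3.58.1), using genes that passed the expression filter of edgeR, TMM normalisation, the 6 groups and 1 RUVs factor as a covariate, in 1 fit of all 12 libraries, with two-sided quasi-likelihood tests and Benjamini-Hochberg adjustment over 19145 genes. The study's methods use 1 RUVs factor, but its control genes are not given in the sources used here, and all tested genes were used. A gene was called at an adjusted p below 0.05. Log2 fold changes are the first group named minus the second. SE is the size of the log2 fold change divided by the square root of the test's F statistic, since the quasi-likelihood test reports no standard error. Library totals were 28325098 to 60532949, and 1 read was worth 0.0229 to 0.0294 CPM. Replicates differed beyond sampling noise in every group. A group at 0 reads was set to a floor of 3 reads over the group, and groups with 1 to 3 reads were compared as a ratio of CPM with a 95% interval. Both cover counting error only, since no molecular identifiers were reported. Members were named with at least 10 reads in 2 or more libraries, those called in any comparison were given by library, and of each pathway list the 3 genes with the smallest adjusted p over the WT tissues were named. Members and lists were chosen with earlier results of these data known. Symbols were matched to the RefSeq annotation of GRCz12tu for names and neighbours (28 of 28 genes), and since the build differs no coordinates are given. Alternatives were DESeq2 1.42.0, its size factors, no RUVs factor, the replicate number as a block, a mean CPM of at least 1, no filter, the compared groups alone and each library left out. The scripts were tested on simulated data. Figures were drawn with Python 3.11.15 and matplotlib 3.10.9.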

Additional observations from a re-analysis of the deposited data

How the results depend on the processing

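No FGF gene that was called changed direction under any alternative tried. Of the 71 calls, 37 held under all 8 processing alternatives, with a gene removed by a filter taken as not held, and 37 without each library. With the compared groups fitted alone, the numbers called were 0 between mutant and WT SV, 0 between mutant SV and BA, and 4 between mutant SV and mutant ventricle. Without the RUVs factor 0 were called between mutant and WT SV, and with a mean CPM of at least 1 the mutant SV and mutant ventricle differed in 6. DESeq2 called 8 between atrium and ventricle, 3 between mutant and WT SV (5.49% of all genes), 2 between the ventricles (4.17%) and 1 for the differing genotype effect (3.39%). For the other counts of this section the shares of all genes are not given. Those counts therefore cannot separate a change in the FGF genes from a change in the number of all genes called. The cause of these differences was not tested. DESeq2's size factors moved the median of all genes by over 0.1 only between SV and atrium (by 0.108 on the log2 scale).

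Shared replicate numbers are not said to pair the libraries, and the replicate differences of the groups correlated between -0.44 and 0.256. With a block on the replicate number replacing the RUVs factor, 7 FGF genes were called between SV and ventricle, 2 between atrium and ventricle, 0 between mutant and WT SV, 2 between mutant SV and BA and 5 between mutant SV and mutant ventricle. With the block beside the factor, 3 were called between atrium and ventricle and 0 between mutant and WT SV. A block with the mutant SV numbers crossed, chosen after seeing the data, called 0 FGF genes and 149 genes in all between mutant and WT SV.

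Leaving out 1 library at a time gave 4 to 7 calls between SV and BA, 3 to 6 between SV and atrium, 8 to 12 between SV and ventricle, 6 to 10 between BA and atrium, 10 to 17 between BA and ventricle, and 2 to 7 between atrium and ventricle. It gave 0 to 2 between mutant and WT SV, 0 to 1 between the ventricles, 2 to 5 between mutant SV and BA, 6 to 14 between mutant SV and mutant ventricle, 0 to 0 for the differing genotype effect and 14 to 19 for any difference among the WT tissues. Where this left a group with 1 library, that library was assumed to vary like the other groups. Genes with few reads, such as fgf8a, fgf11b and fgf12b, are limited by depth.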
